A study of Mus musculus with 2 samples.

Results

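The colony-stimulating factor receptors and their ligand were followed across the myeloid cells of the mouse cerebral cortex. The set holds 5 of the 55357 genes listed in the count matrices, chosen by symbol: the ligand Csf1 and the receptor chains Csf1r, Csf2ra, Csf2rb and Csf3r. Transcripts were counted in single CD45+CD11b+ cells, a surface phenotype shared by microglia and other myeloid cells, taken from 8-week-old wild-type mice and from 8-week-old mice lacking Msn, the gene of the actin-membrane linker moesin. Each genotype was 1 library, made from the pooled cortices of 5 to 6 mice. C57BL/6 is named for the knockout mice only, and the sex of the mice and the deleted stretch of Msn were not given in the sources used here. With 1 library per genotype there is no replicate check, no test was made, and every interval covers counting error only.

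Csf1r is the receptor tyrosine kinase for the cytokines CSF1 and IL-34, and its signal keeps microglia and other tissue macrophages alive. Csf2ra encodes the ligand-binding chain of the receptor for GM-CSF, and Csf2rb the signalling chain that this receptor shares with those for IL-3 and IL-5. Csf3r is the receptor for G-CSF, best known for its part in neutrophil production.

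By the GENCODE annotation of GRCm39, Csf1 (ENSMUSG00000014599) lies at chr3:107648364-107667806 on the minus strand. Csf2ra (ENSMUSG00000059326) lies at chr19:61212395-61216892 on the minus strand. Csf2rb (ENSMUSG00000071713) lies at chr15:78209952-78238047 on the plus strand and Csf3r (ENSMUSG00000028859) at chr4:125918262-125938236 on the plus strand. The UMIs (unique molecular identifiers, 1 per captured RNA molecule) were counted per whole gene, so no value below belongs to a single exon or UTR. Csf1r, Csf1, Csf2ra and Csf3r each overlap an annotated gene on the other strand, and the strand setting of the counting is not given in the sources used here.

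Csf2rb has a close copy, Csf2rb2, at chr15:78166707-78189921 on the minus strand, which encodes a chain specific to the IL-3 receptor. Their coding sequences were 95.2% identical over aligned bases in the annotated transcripts, so reads from one can be hard to assign. A stretch near the end of both coding sequences, bases 2545 to 2634 of each, is shown to make that likeness visible, with the 6 differing bases in capitals.
Csf2rb: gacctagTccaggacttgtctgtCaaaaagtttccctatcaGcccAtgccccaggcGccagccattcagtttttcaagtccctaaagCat
Csf2rb2: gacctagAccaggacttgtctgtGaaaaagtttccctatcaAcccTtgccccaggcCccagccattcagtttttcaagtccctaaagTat
Over the whole transcript, 10.0% of the 80-base words of Csf2rb also stood in Csf2rb2. In the last 500 bases, where a 3′ library places most of its reads, 0 of 421 such words were shared. The Csf2rb values are nonetheless given as uncertain to the extent that reads fell farther upstream.

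In both libraries Csf2ra was higher and Csf3r lower in monocytes than in microglia, as described below. Other classes did not all divide them, and in knockout neutrophils both stood above microglia. Their promoters are shown beside that contrast, and any link between the 2 was not tested. The stretches run from 250 bases before to 50 bases after the start in RefSeq's models on GRCm38.p6. Capitals mark GAGGAA on either strand, a core of sites bound by PU.1, the myeloid factor encoded by Spi1.
Csf2ra, chr19:61228369-61228668, minus strand: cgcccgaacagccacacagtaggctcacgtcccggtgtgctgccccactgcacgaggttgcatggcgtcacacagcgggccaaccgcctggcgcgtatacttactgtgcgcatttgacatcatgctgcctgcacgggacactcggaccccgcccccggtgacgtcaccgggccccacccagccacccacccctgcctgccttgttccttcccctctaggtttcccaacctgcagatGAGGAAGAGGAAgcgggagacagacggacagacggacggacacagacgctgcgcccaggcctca
Csf3r, chr4:126024409-126024708, plus strand: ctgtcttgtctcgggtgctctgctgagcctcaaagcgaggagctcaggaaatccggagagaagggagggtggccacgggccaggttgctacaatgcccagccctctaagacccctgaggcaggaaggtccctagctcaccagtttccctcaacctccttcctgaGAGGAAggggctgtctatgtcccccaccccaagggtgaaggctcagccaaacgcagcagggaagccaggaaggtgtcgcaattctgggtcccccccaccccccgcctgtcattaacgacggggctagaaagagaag
Csf2ra held 2 copies in a run, at 14 and 8 bases before the start, and Csf3r held 1, at 86 bases before it. The promoter of Csf1 held 0. GAGGAA stood in 28.3% of the 32851 promoters of the same length, and TGANTCA, the letters of an AP-1 site (palindromic, so both strands are read at once, and neither motif holds the other), in 7.81% of them and in none of these 3. A match is a description of these letters and not a binding site.

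There were 5842 barcodes with 68576464 UMIs in the wild-type library, and 9038 barcodes with 67575835 UMIs in the knockout library, 13 of them in both. After the filters, 5577 wild-type and 7573 knockout cells remained, with medians of 7178 and 5455 UMIs. Gating on P2ry12 and Tmem119 gave 5119 and 4864 microglia. Ace or Ly6c2 gave 45 and 494 monocytes, of which 18 and 306 were Ace monocytes and 23 and 119 Ly6c2 monocytes. Mrc1 with Pf4 gave 17 and 55 border macrophages. A further 151 and 773 cells met more than 1 gate, with medians of 20827 and 17078 UMIs, and were left out as possible doublets. Another 242 and 1328 cells, 4.34% and 17.5%, met none or were removed by the limits on microglial or lymphoid RNA. Msn stood at 322 CPM (UMIs of a gene scaled to 1000000 UMIs of the class) in wild-type and 20.6 CPM in knockout microglia.

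The gates were checked with markers that they did not use. The summed level of 6 microglial markers such as Sall1 and Siglech was 10364 CPM in wild-type and 11480 CPM in knockout microglia. It was 361 and 283 CPM in monocytes, so little microglial RNA was left there. The monocyte and border gates capped P2ry12 and Tmem119, so a low level was partly set by the gate and is no independent check of it. Border macrophages held 1544 and 2037 CPM of the microglial markers beside 4494 and 4435 CPM of their own 6 markers, and their values below may carry microglial RNA. How much of the marker RNA was their own expression was not tested. Ace monocytes of the knockout library also held 1315 CPM of 2 choroid plexus markers, against 0 in the wild-type library. Erythroid markers stood at 75.7 CPM in wild-type and 548 CPM in knockout microglia. For both of these marker sets the median over the cells of the class was 0 CPM, so the sums came from a minority of cells. A gate for NK cells, lymphocytes outside the myeloid lineage, gave 43 cells in the knockout library and 0 in the wild-type library, and serves as the background class. A gate for neutrophils gave 3 and 16 cells.

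The set divided by class. Among the macrophage and monocyte classes, Csf1r and Csf1 were highest in microglia, Csf2ra was highest in monocytes, and Csf3r was higher in microglia than in monocytes or border macrophages. In the knockout library, which held most of the monocytes, 3 of the 5 genes were lower by 1.5-fold or more in monocytes than in microglia and 1 was higher. Over all 8469 genes tested, 42.4% were lower and 22.0% higher by that rule. Without the limit on microglial RNA in the gate, monocytes stood closer to microglia, with log2 ratios of −0.86 in place of −2.21 for Csf1r, −0.53 in place of −3.32 for Csf1, 1.38 in place of 1.99 for Csf2ra and −0.65 in place of −1.99 for Csf3r. Levels are compared within a gene only, because 3′ UMI counts carry no length term.

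**Figure D1:**
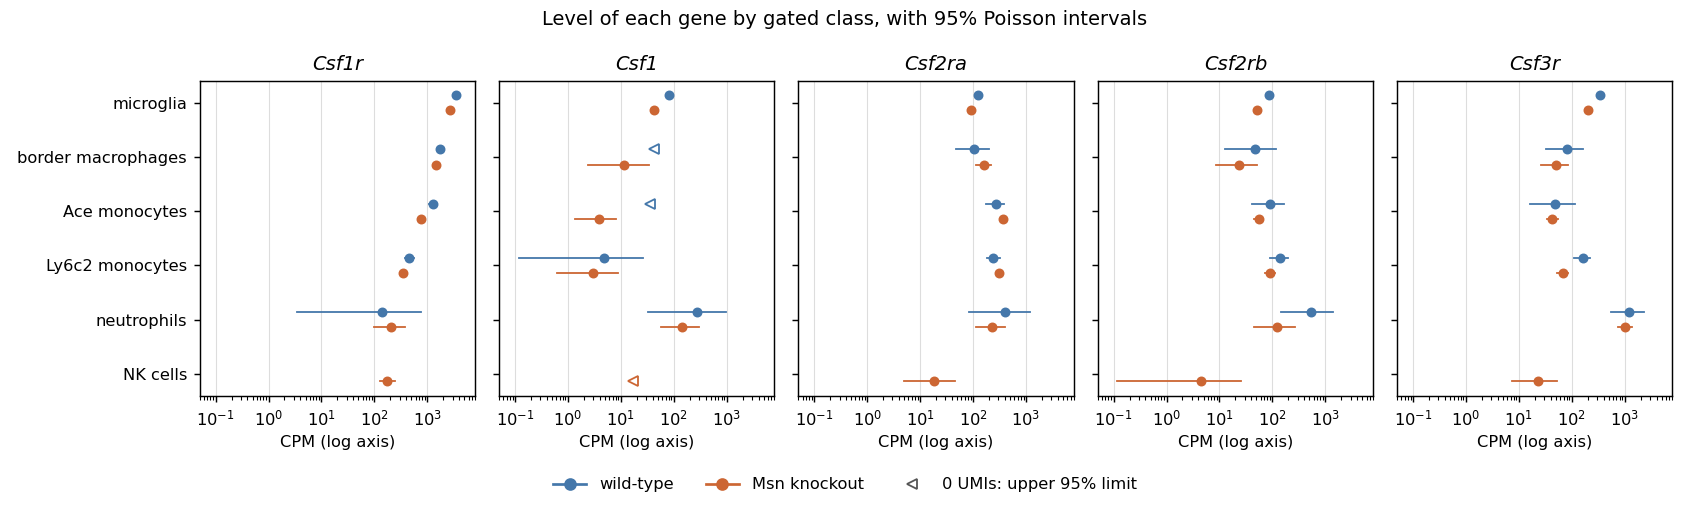
Level of each gene in CPM (log axis) by gated class, with 95% Poisson intervals, in the wild-type and the Msn knockout library. Open triangles give the upper limit where the class held 0 UMIs; Csf1r falls from microglia to Ly6c2 monocytes in both libraries, while Csf2ra is higher in both monocyte groups than in microglia.

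By CPM, Csf1, the ligand, was highest in microglia among these macrophages and monocytes. Its level was 82.4 CPM (95% interval 80.2 to 84.7) in wild-type and 42.0 CPM (40.1 to 44.1) in knockout microglia. The 45 wild-type monocytes held 1 UMI and the 494 knockout monocytes 13 UMIs, or 4.22 CPM (2.25 to 7.22). Within that library this was 9.95-fold lower than in microglia (5.81 to 18.7), a log2 ratio of −3.32 that became −2.15 (−3.38 to −1.16) after thinning every cell to 2000 UMIs. The border macrophages held 0 and 3 UMIs, and the 43 NK cells held 0, which allows up to 13.5 CPM. The 16 knockout neutrophils held 7 UMIs, or 143 CPM (57.5 to 295), above the microglial interval, and the 3 wild-type neutrophils held 2 UMIs. IL-34, the other ligand of the receptor, was nearly absent from these cells: Il34 had 2 UMIs in wild-type and 0 in knockout microglia.

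Csf1r, the receptor for that ligand, fell off in steps from microglia to monocytes. Its gene (ENSMUSG00000024621) lies at chr18:61229714-61266535 on the plus strand of GRCm39. In the wild-type library it stood at 3438 CPM (3424 to 3453) in microglia, 1763 CPM (1495 to 2066) in border macrophages, 1280 CPM (1070 to 1520) in Ace monocytes and 459 CPM (372 to 559) in Ly6c2 monocytes. The same knockout classes stood at 2714 CPM (2698 to 2731), 1433 CPM (1291 to 1587), 748 CPM (706 to 792) and 351 CPM (315 to 390). The order was the same in both libraries, and the intervals of wild-type border macrophages and Ace monocytes overlapped. Border macrophages were 1.89-fold below microglia in the knockout library (1.71 to 2.10), and monocytes 4.63-fold below (4.42 to 4.85). Ace monocytes, the patrolling kind, held 2.13-fold more Csf1r than Ly6c2 monocytes in the knockout library (1.89 to 2.41) and 2.79-fold more in the wild-type library (2.13 to 3.67). NK cells stood at 176 CPM (125 to 241), the level found in this lymphoid background class.

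Csf2ra, the GM-CSF-binding chain, ran the other way. Wild-type monocytes held 263 CPM (212 to 323) and knockout monocytes 359 CPM (338 to 381), against 126 CPM (124 to 129) and 90.2 CPM (87.3 to 93.2) in microglia. Monocytes were thus 2.08-fold above microglia in the wild-type library (1.67 to 2.56) and 3.98-fold above in the knockout library (3.72 to 4.26). Ace and Ly6c2 monocytes of the knockout library stood at 375 CPM (345 to 406) and 307 CPM (273 to 343). Border macrophages lay at 159 CPM (114 to 215) there, 1.76-fold above microglia (1.26 to 2.39), but at 104 CPM from 9 UMIs in the wild-type library, where the intervals overlapped. Without the limit on microglial RNA in the gate, the log2 ratio in the knockout library was 0.11 (−0.0078 to 0.22) in place of 0.82, inside 1.5-fold. The 3 wild-type neutrophils held 3 UMIs of Csf2ra, and the 16 knockout neutrophils 11 UMIs, or 225 CPM (112 to 402). NK cells held 4 UMIs, or 18.1 CPM (4.92 to 46.2).

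Csf2rb, the shared signalling chain, differed less between microglia and monocytes than its partner did. It stood at 84.9 CPM (82.6 to 87.2) in wild-type and 51.0 CPM (48.8 to 53.3) in knockout microglia, and at 119 CPM (85.0 to 161) and 68.9 CPM (59.9 to 78.8) in monocytes. The monocyte level was 1.35-fold above microglia in the knockout library (1.17 to 1.56), under the 1.5-fold rule. Within the knockout monocytes, Ace cells stood 1.66-fold below Ly6c2 cells (1.23 to 2.26), opposite in direction to Csf1r. Border macrophages held 4 and 6 UMIs, too few to place. Neutrophils also held 4 and 6 UMIs, and the knockout value of 123 CPM had an interval (45.0 to 267) that overlapped those of microglia and monocytes. Csf2rb2, the close copy, stood at 27.5 CPM in wild-type and 17.7 CPM in knockout microglia and held 1 and 21 UMIs in monocytes.

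Csf3r, the G-CSF receptor, was present in microglia and highest in neutrophils. Wild-type microglia stood at 342 CPM (337 to 346) and knockout microglia at 199 CPM (195 to 203). Monocytes held 130 CPM (94.9 to 174) and 50.0 CPM (42.4 to 58.6), 3.98-fold below microglia in the knockout library (3.39 to 4.69) and 2.63-fold below in the wild-type library (1.96 to 3.60). Border macrophages stood at 80.7 and 50.4 CPM from 7 and 13 UMIs. The 16 knockout neutrophils stood at 1022 CPM (759 to 1348), 5.14-fold above microglia (3.81 to 6.78), and the 3 wild-type neutrophils held 9 UMIs. NK cells stood at 22.6 CPM (7.33 to 52.7), whose interval overlapped that of the knockout monocytes, so part of the monocyte value cannot be told from background.

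The border macrophages gave a weaker picture than the monocytes. In the knockout library 4 of the 5 genes were lower there than in microglia by 1.5-fold or more and 1 was higher, against 26.8% and 21.3% of the 8645 genes tested. The Csf1 and Csf2rb calls rested on 3 and 6 UMIs. None of the 5 calls held without the limit on microglial RNA in the gate. The log2 ratio then changed sign for Csf1, from −1.86 to 0.16, and for Csf2rb, from −1.13 to 0.050. It came to −0.14 from −0.92 for Csf1r, to 0.11 from 0.82 for Csf2ra and to −0.16 from −1.98 for Csf3r. After thinning to 2000 UMIs, Csf1 at −0.26 and Csf2rb at −0.35 were also inside 1.5-fold.

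In the knockout library, shares of cells gave the same division between microglia and monocytes for Csf1r, Csf1, Csf2ra and Csf3r after every cell had been thinned to 2000 UMIs. For Csf2rb they did not set monocytes above microglia, with 9.24% against 9.80%. Thinning left 4983 wild-type and 4512 knockout microglia. Csf1r was detected in 99.8% and 99.2% of them, at a median of 7 and 5 UMIs per cell. Csf3r was detected in 46.2% and 32.2%, Csf2ra in 21.7% and 16.3%, Csf2rb in 14.8% and 9.80%, and Csf1 in 9.83% and 6.05%. Without thinning the shares were 99.8% and 99.3% for Csf1r, 85.0% and 66.3% for Csf3r, 60.0% and 42.0% for Csf2ra, 50.0% and 28.7% for Csf2rb, and 33.2% and 18.3% for Csf1, at median depths of 7384 and 5687 UMIs. In knockout monocytes, with a median of 5677 UMIs, the thinned shares were 70.8% for Csf1r, 51.7% for Csf2ra, 9.24% for Csf2rb, 8.01% for Csf3r and 1.64% for Csf1. Unthinned they were 94.7%, 82.8%, 30.2%, 24.1% and 2.63% in the same order. For Csf1 in the knockout library, the thinned share did not set border macrophages apart from microglia. No Csf1 UMI was held by 46 of 49 border macrophages, or 93.9%, and by 93.9% of microglia. NK cells, at a median of 4598 UMIs, gave 23.8% for Csf1r and 7.14% for Csf3r after thinning, and 51.2% and 11.6% before it. The Csf3r share of monocytes lay inside the interval of the NK share both after thinning (1.5% to 19.5%) and before it (3.89% to 25.1%), so it could not be told from the background class. For Csf1, Csf2ra and Csf2rb the thinned NK share was 0 of 42 cells, which allows up to 7.14%.

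Csf1 was spread over microglia less evenly than the receptors by the ratio of variance to mean. The variance of its thinned UMIs over cells was 1.53 times the mean in the wild-type and 1.42 times in the knockout library. For Csf1r that ratio was 1.17 and 1.23, and for Csf2ra, Csf2rb and Csf3r it lay between 1.02 and 1.08, near the value of 1 that random sampling gives. In the wild-type library, 99 cells with 2 or more Csf1 UMIs, 1.99% of microglia, held 37.7% of all Csf1 UMIs. Csf2rb, at a slightly higher mean, had 17.8% of its UMIs in 68 such cells. Nearly every microglial cell with a Csf1 UMI also held Csf1r, 489 of 490 in the wild-type and 270 of 273 in the knockout library, as the high share of Csf1r alone would give.

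Csf1 was also the only gene of the set that stood 1.5-fold or more apart between microglial states in either library. Within each library, microglia were ranked by the summed thinned UMIs of a short gene list, and the highest 10% were set beside the rest. Over the 6 lists and both libraries, between 0.08% and 4.28% of all genes were higher by that rule and between 0.0456% and 1.14% lower, leaving out the genes of each list. Where cells shared the score at the limit, those counted as high were drawn at random. Such ties were few for the chemokine list, with 21 of 498 wild-type and 45 of 451 knockout high cells, and most for the interferon list in the wild-type library, with 374 of 498. In the cells highest in the chemokines Ccl3 and Ccl4, Csf1 stood at 130 CPM against 78.3 CPM in the wild-type library, a log2 difference of 0.73 (0.61 to 0.85), beside 0.981% of genes higher and 0.297% lower by 1.5-fold. The knockout values were 92.4 against 36.2 CPM, with a log2 difference of 1.35 (1.18 to 1.52), beside 0.757% of genes higher and 0.82% lower. Those cells had median depths of 6343 UMIs against 8044 in the wild-type and 6214 against 5885 in the knockout library. With all tied cells counted as high, the differences were 0.71 and 1.35.

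The other states were less uniform for Csf1. With the disease-associated list (Apoe, Spp1 and others), Csf1 stood at 111 against 78.8 CPM in the wild-type library, a log2 difference of 0.50 (0.39 to 0.61). The knockout values were 39.6 against 42.0 CPM, with a log2 difference of −0.08 (−0.32 to 0.14). With MHC class II genes the log2 difference was 0.10 (−0.03 to 0.22) in the wild-type and 0.56 (0.37 to 0.74) in the knockout library, where it was 0.35 with all 723 tied cells counted as high. With heat shock genes it was −0.33 (−0.48 to −0.18) and −0.13 (−0.38 to 0.12). Whether the libraries differ in these relations was not tested.

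The receptors varied little by state. Csf1r differed by between −0.21 and 0.04 on the log2 scale over the 6 lists and both libraries. Csf2rb and Csf3r stayed within 0.14 in either direction. Csf2ra stood out with interferon genes in the knockout library, at 124 against 85.5 CPM, a log2 difference of 0.53 (0.40 to 0.66), against 122 and 127 CPM (−0.06, −0.17 to 0.04) in the wild-type library. With all 830 tied cells counted as high, the knockout difference fell to 0.19 (0.09 to 0.29).

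**Figure D2:**
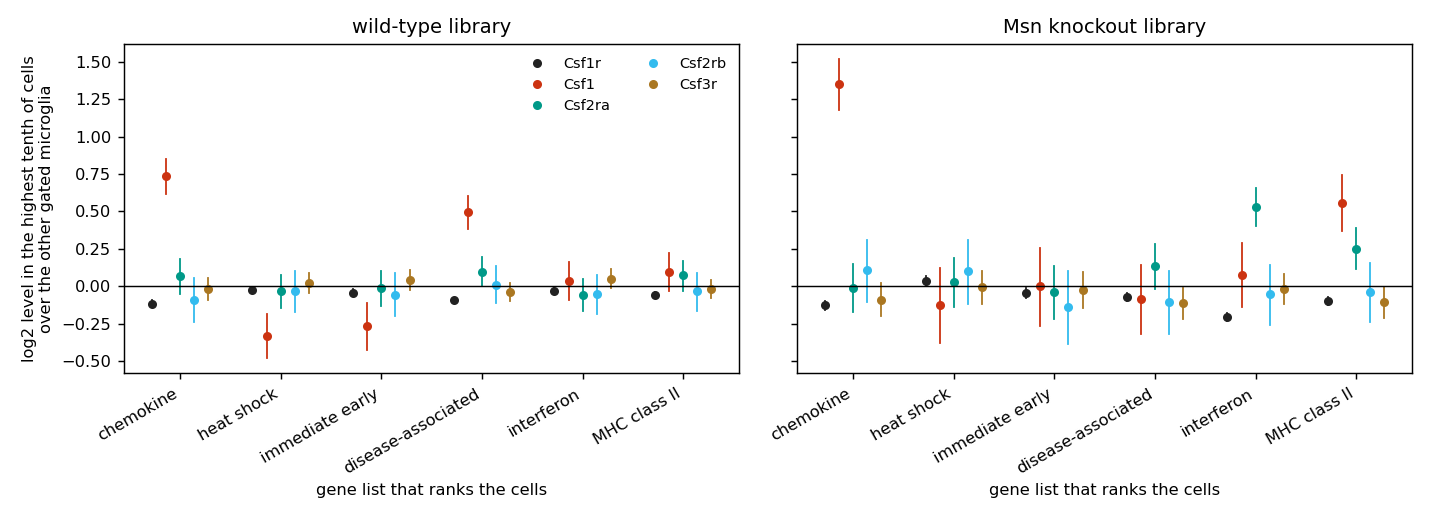
Log2 level of each gene in the highest 10% of gated microglia for 6 gene lists over the other microglia, by library, with 95% counting intervals. Csf1 lies at 0.73 and 1.35 for the chemokine list, and the Csf1r points lie between −0.21 and 0.04.

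Between genotypes, all 5 genes stood lower on the CPM scale in knockout than in wild-type microglia. Most genes did too: over 8715 genes at 10 CPM or more, the median log2 ratio was −0.30, and ratios below are given relative to it. On that scale 1 of the 5 genes, Csf1, was lower by 1.5-fold or more, against 12.3% of all genes, and 0 were higher, against 15.4%. On the CPM scale Csf1, Csf3r and Csf2rb were lower by that rule, against 30.8% of all genes, and 0 were higher, against 4.77%.

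Csf1, at 82.4 CPM in wild-type and 42.0 CPM in knockout microglia, had a relative log2 ratio of −0.67 (−0.75 to −0.59). Of all genes, 8.92% had a lower ratio. This call depended on the cells used and on the scaling. The ratio was −0.28 among cells of 3000 to 10000 UMIs, −0.50 with every cell thinned to 2000 UMIs and −0.54 with median-of-ratios scaling, each inside 1.5-fold.

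The level of Csf1 moved with the UMI content of the cell, mainly in the wild-type library. There it was 43.2 CPM (38.9 to 47.9) in microglia of 3000 to 6000 UMIs, 69.2 CPM at 6000 to 10000, 77.2 CPM at 10000 to 20000 and 101 CPM (97.3 to 105) at 20000 or more. In the knockout library the same bins gave 33.6 CPM (30.1 to 37.4), 43.4, 42.2 and 48.3 CPM (44.2 to 52.6). The relative log2 ratio accordingly ran from −0.09 (−0.31 to 0.13) at 3000 to 6000 UMIs, over −0.39 and −0.57, to −0.74 (−0.88 to −0.61) at 20000 or more. Under 3000 UMIs it was 0.25 (−0.53 to 1.08). The genotype difference in Csf1 was thus larger in bins of more UMIs, and the wild-type library held 845 microglia at 20000 UMIs or more against 353 in the knockout library. The part of depth in the ratio over all microglia was not tested beyond these values.

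**Figure D3:**
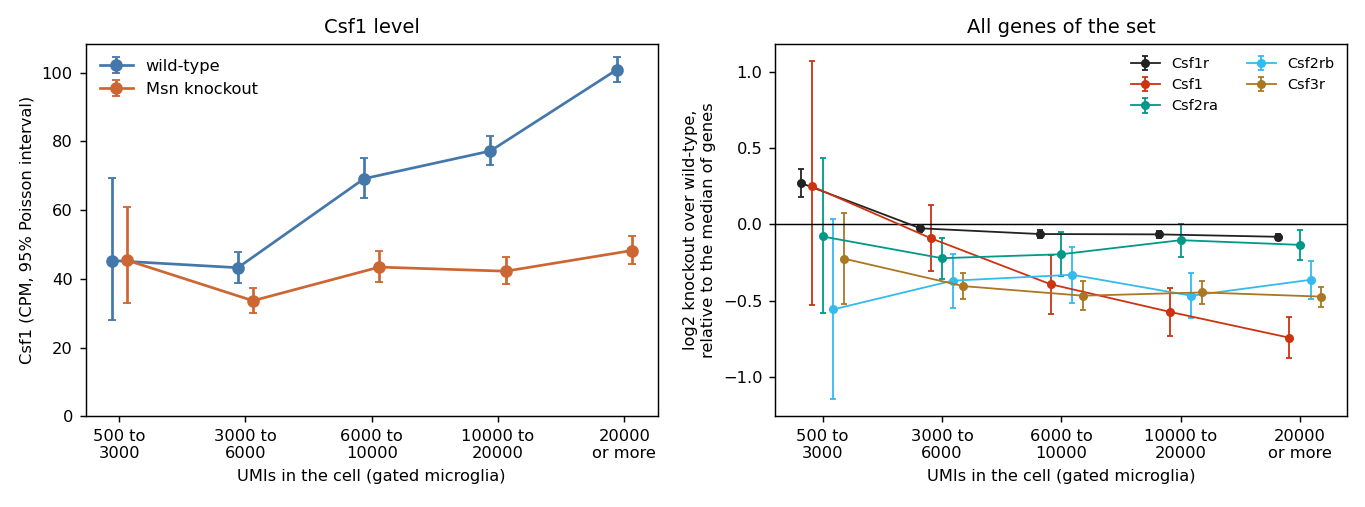
Left, Csf1 in CPM in gated microglia by the number of UMIs in the cell, for each library, with 95% Poisson intervals. Right, the relative log2 ratio of knockout over wild-type for each gene in the same bins; the Csf1 ratio goes from −0.09 at 3000 to 6000 UMIs to −0.74 at 20000 or more, while Csf3r stays between −0.22 and −0.47.

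Csf1r kept close to the median of all genes. Its level of 3438 CPM in wild-type and 2714 CPM in knockout microglia gave a relative log2 ratio of −0.04 (−0.05 to −0.03), and 0.089 with median-of-ratios scaling. Under 3000 UMIs the ratio was 0.27 (0.18 to 0.36), and in the deeper bins it lay between −0.03 and −0.08.

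The other receptor chains were lower than the median but inside the rule. Csf3r, at 342 and 199 CPM, had a relative log2 ratio of −0.48 (−0.52 to −0.44), and Csf2rb, at 84.9 and 51.0 CPM, one of −0.44 (−0.51 to −0.36). Csf2rb2 had −0.34 (−0.47 to −0.21). Csf2ra, at 126 and 90.2 CPM, had −0.19 (−0.25 to −0.13). Their values changed little over depth: the Csf3r ratio lay between −0.22 and −0.47 over the 5 bins, that of Csf2rb between −0.33 and −0.56, and that of Csf2ra between −0.08 and −0.22. Without cells holding an erythroid or choroid plexus UMI, the ratios were −0.62 for Csf1, −0.49 for Csf3r, −0.45 for Csf2rb, −0.22 for Csf2ra and −0.03 for Csf1r.

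In monocytes the wild-type library limits the comparison, with 45 cells. Ratios there are relative to the median of 1807 genes at 100 CPM or more. Over all monocytes, 2 of the 4 receptor chains, Csf2rb and Csf3r, were lower by 1.5-fold or more, against 18.6% of genes. In the other direction 0 were higher, against 12.5%. Csf3r, at 130 and 50.0 CPM, had a relative log2 ratio of −1.39 (−1.87 to −0.87). The monocyte kinds were mixed differently, so the ratio was also taken within each. Within Ly6c2 monocytes, Csf3r stood at 161 and 68.4 CPM (−1.24, −1.86 to −0.60), and within Ace monocytes at 49.2 and 43.0 CPM (−0.10, −1.40 to 1.56) from 5 and 68 UMIs.

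Csf2rb, at 119 and 68.9 CPM, had −0.79 (−1.28 to −0.27) in monocytes, and its interval covered 0 within each kind. After thinning to 2000 UMIs it was −0.23 and thus inside the rule. Csf1r had −0.31 (−0.51 to −0.12) over all monocytes, −0.40 (−0.72 to −0.06) within Ly6c2 cells and −0.68 (−0.95 to −0.41) within Ace cells, at 1280 and 748 CPM. Of the 4 receptor chains, Csf2ra alone had a positive ratio in monocytes, 0.44 (0.13 to 0.77), at 263 and 359 CPM. After thinning it was 0.97 (0.29 to 1.74), past 1.5-fold. It was 0.59 (0.03 to 1.20) in Ace and 0.34 (−0.09 to 0.79) in Ly6c2 monocytes. By size within Ace cells, Csf1r and Csf2rb were lower by 1.5-fold or more and Csf2ra was just past it upward. Of 1928 genes there, 19.6%, 23.3% and 80.4% had a lower ratio than these, in that order. Within Ly6c2 cells Csf2rb and Csf3r were lower, where 21.1% and 4.99% of 1745 genes had a lower ratio. Choroid plexus RNA stood at 684 CPM summed over the knockout monocytes, with a median of 0 over cells, and at 0 in the wild-type ones. The part of this RNA in these ratios was not tested.

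Border macrophages were too few to place by genotype. Csf1r, at 1763 and 1433 CPM, had a relative log2 ratio of −0.18 (−0.45 to 0.10). By size alone, Csf2ra was higher and Csf2rb lower by 1.5-fold or more, against 24.9% and 25.0% of genes in those directions, and the intervals of both and of Csf3r covered 0.

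**Figure D4:**
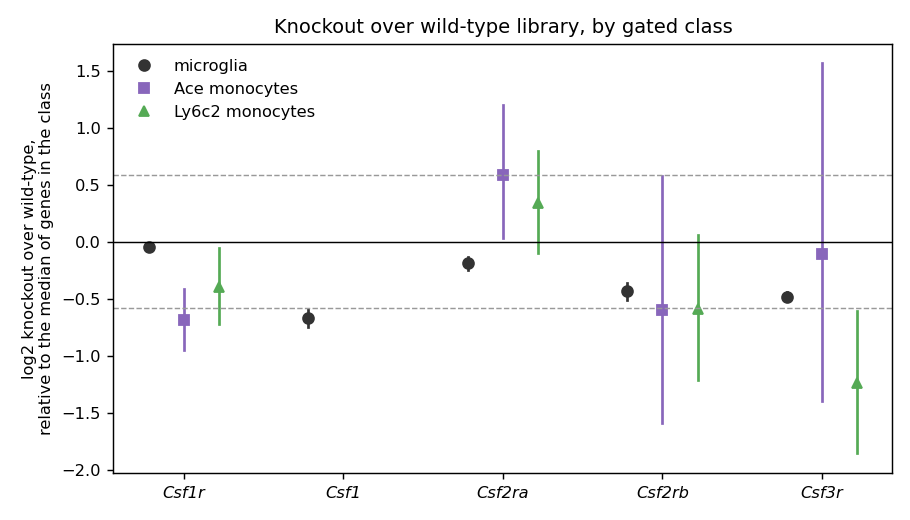
Log2 ratio of knockout over wild-type for each gene, relative to the median of genes in the class, with 95% counting intervals, in microglia and in the Ace and Ly6c2 monocytes (Csf1 in monocytes is left out for its few UMIs). Dashed lines mark 1.5-fold; Csf2ra lies at −0.19 in microglia and at 0.59 and 0.34 in the monocyte groups.

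The signalling partners and regulators of these receptors were followed as a list of 54 genes, of which 42 reached 10 CPM in microglia. On the relative scale 6 were higher by 1.5-fold or more (14.3%), 5 lower (11.9%) and 31 within it, with a median of −0.14 against 0 over all genes. Those shares are near the 15.4% and 12.3% of all genes. Without the centring on the median, 3 passed upward and 17 downward, where 4.77% and 30.8% of all genes did.

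Among other ligands and receptor chains, Csf2rb2 alone of 10 was measured, and Csf2, Csf3, Il3 and Il5, which encode GM-CSF, G-CSF, IL-3 and IL-5, had 0 UMIs in the microglia of both libraries. Among 24 adaptors and kinases, 3 were higher (12.5%) and 5 lower (20.8%), beside the 15.4% and 12.3% of all genes. By relative log2 ratio the higher ones were Mapk3 (0.78), Akt1 (0.77) and Tyrobp (0.70, at 2290 and 3030 CPM). Without the centring each of these was inside 1.5-fold. The lowest were Stat5b, a transcription factor activated downstream of the GM-CSF receptor, at 40.7 and 16.1 CPM (relative log2 ratio −1.04, −1.17 to −0.92), the docking protein Gab2 at 49.4 and 21.8 CPM (−0.88), and Cbl, the ubiquitin ligase that drives Csf1r turnover, at 207 and 95.5 CPM (−0.82). Of 7 measured inhibitors 1 was higher, Socs1, a brake on JAK kinases, at 11.6 and 18.5 CPM (0.97, 0.82 to 1.12).

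Of 9 transcription factors 2 were higher (22.2%) and 0 lower, again beside 15.4% and 12.3% of all genes. Cebpb, a myeloid factor, stood at 253 CPM in wild-type and 496 CPM in knockout microglia (1.27, 1.24 to 1.30), and Spi1, which encodes PU.1, at 284 and 432 CPM (0.90, 0.87 to 0.93). The protease gene Adam17, known for shedding Csf1r from the cell surface, stood at 169 and 95.1 CPM (−0.53), inside the rule. Pdgfrb, which ends 11580 bases before Csf1r on the same strand and is a marker of pericytes, had 61 and 26 UMIs in microglia, 0.963 and 0.642 CPM.

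**Figure D5:**
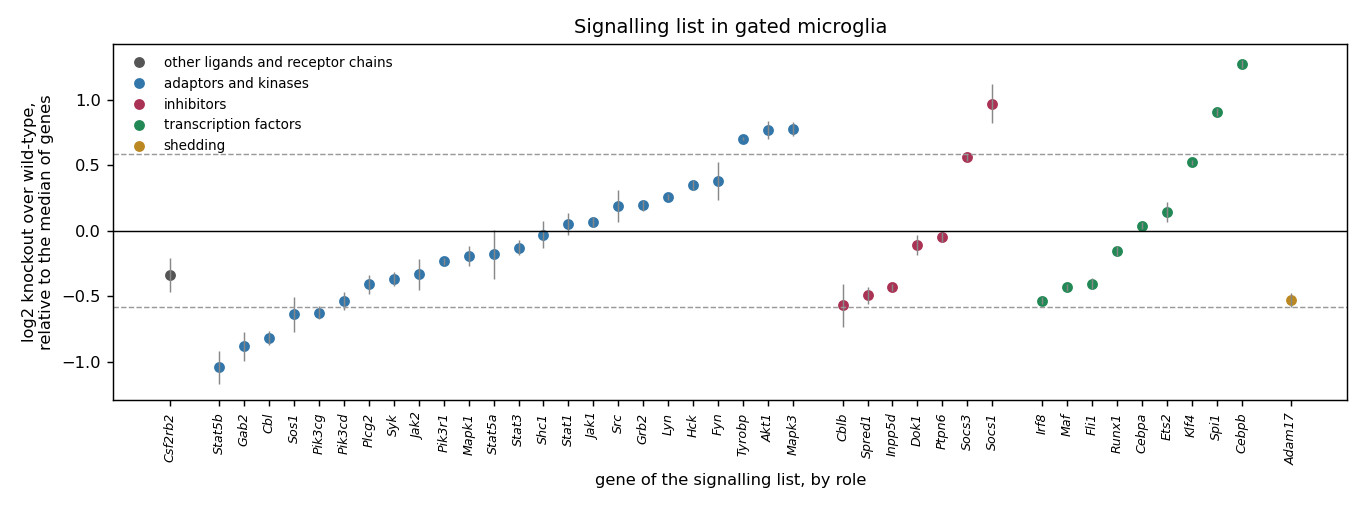
Relative log2 ratio of knockout over wild-type in gated microglia for the 42 measured genes of the signalling list, ordered within roles, with 95% counting intervals and dashed lines at 1.5-fold. Cebpb at 1.27 is the highest point and Stat5b at −1.04 the lowest.

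Genes with the most similar pattern were sought over 10 profiles, each a gated class in 1 library with at least 20000 UMIs and with Ace and Ly6c2 monocytes taken separately, by Pearson's r of log2(CPM + 1) among 9410 genes. The profiles share libraries, so r is a description. For Csf1r the closest genes were Abhd12 (r = 0.97), Gpr155, Csmd3, Mtdh and Maged1, and for Csf1 they were Phactr1 (0.95), Yes1, Zfp30, Zfp874b and C1rl. For Csf2ra they were Igsf6 (0.96), Sat1, Aldh3b1, Cd300a and 5031439G07Rik. For Csf2rb they were Tmem50b (0.98), Syk, I830077J02Rik, Il13ra1 and Skap2, and for Csf3r Slc35a2 (0.93), Ddx6, Gm47657, Cd101 and Amer2. Within the set, Csf1 went with Csf3r (0.85) and Csf2ra with Csf2rb (0.83), while Csf1r stayed at 0.18 or less with each of the others. The Csf1 values carry a limit. Csf1 held between 0 and 6 UMIs in each monocyte and border profile and 0 in NK cells. Its r values thus rest mainly on the microglia profiles and the knockout neutrophils. The r between Csf2ra and Csf2rb carries a limit too. Both genes were lowest in the knockout NK profile, at 18.1 and 4.52 CPM, and Csf2rb held 4 and 6 UMIs in the border profiles. How far that r rests on the NK profile was not tested, so it does not show that they vary together among the myeloid classes.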

How the data were processed

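The authors' deposited values are UMI counts, whole numbers for each gene in each barcode, from Cell Ranger, version 7.0.0 per the file headers and 6.0 per the labels' protocols. The build was GRCm39 and quality control used Seurat and a minimum of 500 genes, per the labels' protocols. The deposited counts still held 207 wild-type and 1463 knockout barcodes under it.

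From these counts, cells with at least 500 genes and at most 10% mitochondrially encoded UMIs were kept. Microglia had at least 1 UMI each of P2ry12 and Tmem119. Monocytes had at least 2 UMIs of Ace or of Ly6c2, and border macrophages at least 2 each of Mrc1 and Pf4. Cells of these latter classes also had P2ry12 and Tmem119 CPM under 10% of the microglial median of their library, a limit of 400 and 375 CPM. Cells in more than 1 gate, or with 3 or more lymphoid UMIs, were in no class. NK cells had at least 2 UMIs of Nkg7 and 1 of Klrb1c or Ncr1, and neutrophils at least 5 each of S100a8 and S100a9 and 1 of Cxcr2 or Retnlg. Of microglia, 148 and 348 passed on a single UMI of a marker. No doublet caller was run.

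UMIs were summed per class and library as CPM, with exact 95% Poisson intervals, exact conditional intervals for ratios and exact Clopper-Pearson intervals for shares. Genes were called by size at 1.5-fold, relative to the median of genes at 10 CPM or more (100 CPM in monocytes and border macrophages, a floor chosen with the counts known). A class with 0 UMIs was given the limit of 3 counts. Python 3.11.15 with numpy 2.4.6, scipy 1.17.1 and pandas 2.3.3 was used, and the interval and ratio steps were tested on simulated data. Coordinates came from GENCODE, matched by identifier for 54749 of 55357 genes.

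The genes and lists were chosen with earlier results of these data known. The depth bins were added after the counts had been seen. Named genes were the 5 of the set, Csf2rb2, the 3 highest and 3 lowest ratios of the signalling list, and the 5 genes most alike for each gene of the set, leaving out gating and state genes. Tyrobp, Akt1 and Mapk3 complete the higher calls of that list, and Sos1 and Pik3cg the lower ones. Il34, Csf2, Csf3, Il3, Il5, Adam17 and Pdgfrb were named from that list for their roles, after their values were seen. A gene of the signalling list and a microglial marker are not reported here and are left out of every count and sum. Alternatives changed the cell filters, depth, gates and scaling.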

Additional observations from a re-analysis of the deposited data

Results flagged for a closer look

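The knockout over wild-type ratio of Csf2ra had opposite signs in gated microglia and gated monocytes. It was −0.19 (−0.25 to −0.13) in microglia and 0.44 (0.13 to 0.77) in monocytes, on the log2 scale relative to the median of genes in each class, a difference of 0.63. With 1 library per genotype, the difference was not tested.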

How the results depend on the processing

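Values here are log2 ratios, for knockout over wild-type microglia unless a class is named. Cells of 3000 to 10000 UMIs gave −0.28 for Csf1, −0.35 for Csf2rb and −0.43 for Csf3r, and 2.14 for Csf2ra in monocytes over microglia. Thinning gave −0.026 for Csf1r, −0.50 for Csf1, −0.36 for Csf2rb and −0.42 for Csf3r. For classes over microglia it gave −2.15 for Csf1 and 0.0046 for Csf2rb in monocytes, and −0.26 for Csf1 in border macrophages. Without centring, Csf1r was −0.34, Csf1 −0.97, Csf2ra −0.49, Csf2rb −0.73 and Csf3r −0.78, and 20 genes of the signalling list passed 1.5-fold in place of 11, on a scale where 30.8% of all genes were lower and 4.77% higher. Median-of-ratios scaling, and the median of genes with 1 UMI in each library, which is the same quantity for 2 libraries, gave 0.089, −0.54, −0.058, −0.31 and −0.35 in that order. All kept cells gave −0.18 for Csf1r, 0.15 for Csf2ra, −0.36 for Csf2rb and −0.56 for Csf3r. Stricter gates gave −2.29 for Csf1r in monocytes over microglia.

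Without the limit on microglial RNA, monocytes over microglia were −0.86 for Csf1r, −0.53 for Csf1, 1.38 for Csf2ra and −0.65 for Csf3r. Border macrophages were −0.14 for Csf1r, 0.11 for Csf2ra and −0.16 for Csf3r, and changed sign for Csf1 (0.16) and Csf2rb (0.050). The gates then hold cells rich in microglial RNA by construction. The border ratio of Csf2ra between genotypes, recomputed by a choice made after seeing the data, became −0.32 from 0.74. In the wild-type library, monocytes over microglia were −4.83 for Csf1, 1.06 for Csf2ra and −1.39 for Csf3r, and the border value of Csf2ra was −0.29, the opposite sign. For other changes the cause was not tested.

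With the highest 20% of cells in place of 10%, chosen after seeing the data, Csf1 in the knockout library was 1.03 by chemokines, 0.20 by disease-associated genes, 0.33 by interferon genes and 0.36 by MHC class II genes. For the interferon and MHC class II lists in the wild-type library no such value was taken, because fewer cells than that scored above 0. With all tied cells counted as high, also chosen then, Csf1 was 0.35 by MHC class II genes in the knockout library. Leaving out cells with erythroid or choroid plexus UMIs, or those highest in heat shock genes, also chosen then, moved no ratio out of its interval. Of 292 alternative values, 270 kept their sign. No paired analysis was possible because each genotype was 1 library. Libraries differ in depth per cell, and values from under 10 UMIs carry wide counting intervals.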

Other observations

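The cells that met more than 1 gate, which entered the genotype ratio over all kept cells and no class, held Csf1r at 3080 CPM (3025 to 3135) in the wild-type and 2273 CPM (2251 to 2295) in the knockout library. Their Csf2ra levels were 151 and 120 CPM, between those of microglia and monocytes in each library. The other cells in no class, which met no gate or were removed by a limit, held Csf1r at 2240 CPM (2127 to 2356) and 1479 CPM (1442 to 1518). Their Csf1 levels were 122 CPM (96.5 to 151) and 65.3 CPM (57.6 to 73.7), above those of the microglia in each library, at median depths of 1350.5 and 1119 UMIs.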
